A study of Arabidopsis thaliana with 21 samples.

Results

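Arabidopsis leaf mesophyll protoplasts, which are leaf cells stripped of their walls, were transfected with plasmids and their RNA was sequenced. The comparison described here sets protoplasts given plasmids for an NLP7-GFP fusion and for KIN10 with a Myc tag (NLP7 with KIN10) against protoplasts given the NLP7-GFP fusion without KIN10 (NLP7 alone). It covers 6 of the 21 libraries of the series, 3 in each group. Protoplasts given GFP served as a baseline in 3 further libraries, and all 3 groups carried a GFP plasmid or a GFP fusion. The genotype label of the protoplasts is Col-0, from soil-grown plants aged 4 weeks, while another label field names Landsberg erecta seedlings. Replicates are labelled as biological, and the labels give no promoter for the plasmids and no share of transfected cells. The question put by the study's design was how KIN10 affects what NLP7 does.

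KIN10 is a catalytic subunit of SnRK1, the plant relative of the yeast Snf1 and animal AMPK kinases, which is active when cellular energy is low and shifts transcription from growth to starvation programmes. NLP7 is a RWP-RK transcription factor that carries the nitrate signal to genes of nitrate uptake, reduction and assimilation. In a transient protoplast assay, both proteins are made from plasmids within hours, so that early target genes can be read from total RNA. Such RNA pools transfected and untransfected cells, and fewer cells expressing a gene cannot be told apart from less RNA per cell.

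Values were taken for the union of the authors' protoplast lists, 2065 genes. Against GFP, the authors listed 1985 of them for NLP7 alone and 455 when KIN10 was present, and 375 were on both lists. Genes outside these lists were not analysed here. Mapped fragments were estimated from counts, FPKM and transcript length. They numbered 20222911, 20438949 and 16220993 in the libraries of NLP7 with KIN10, 18911780, 17429468 and 19105531 with NLP7 alone, and 18298961, 16188751 and 17162356 with GFP. Listed genes held 2.68 to 3.42% of these fragments in NLP7 with KIN10, 7.11 to 8.64% in NLP7 alone and 2.04 to 2.1% in GFP. Levels are FPKM, fragments scaled to transcript length and to all mapped fragments, and means are given with the SD of 3 libraries. Fold changes on the log2 scale are NLP7 with KIN10 over NLP7 alone, and "rose", "fell", "higher" and "lower" of a called gene mean an adjusted p under 0.05 in edgeR's quasi-likelihood test. The SE given with a log2 fold change was worked back from that test's statistic. For genes with few counts it may understate the error. Of 15 mesophyll and photosynthesis genes, the 4 that the authors list (RBCS2B, CAB1, LHCB2.1 and GAPA) summed to 755 to 1255 FPKM in NLP7 with KIN10, 1384 to 1570.3 in NLP7 alone and 497 to 557 in GFP. Of 12 markers of other leaf and vascular cells, the 2 that the authors list, GL2 and XCP1, summed to 0 in every library of NLP7 with KIN10, 1.65 to 1.92 FPKM in NLP7 alone and 0 in GFP. These markers were listed for a difference from GFP and the others cannot be seen, so the sums do not measure cell make-up. The part of cell make-up in the results was not tested.

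The NLP7 transcript was itself much lower where KIN10 was added. NLP7 (AT4G24020, chromosome 4, 12479528 to 12484049, TAIR10) stood at 280.2, 212 and 417 FPKM in NLP7 with KIN10, against 2261, 1536 and 1950 FPKM in NLP7 alone, and at 52.7, 53.7 and 43.2 FPKM with GFP. No library of one group reached into another. The transcript fell 6.32 ± 1.44-fold in mean FPKM (log2 fold change -2.66 ± 0.21, adjusted p = 3.7e-08, edgeR), and 13.6 ± 3.59% of the difference between NLP7 alone and GFP was left with KIN10. Single libraries of NLP7 with KIN10 held 14.6, 11.0 and 21.8% of the mean with NLP7 alone. The counts do not separate plasmid-borne from chromosomal transcripts. Every change below was measured beside this fall, and its part in those changes was not tested.

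KIN10 (AT3G01090, chromosome 3, 31145 to 34670) was high only in the libraries labelled as having received it. Its level was 407, 287 and 546 FPKM in NLP7 with KIN10, 26.2, 27.4 and 30.1 FPKM in NLP7 alone, and 32.4, 33.1 and 31.6 FPKM with GFP. The transcript was 14.8 ± 2.75-fold higher than with NLP7 alone (log2 fold change 3.83 ± 0.20, adjusted p = 1.36e-09, edgeR). Library 3 of NLP7 with KIN10 had the most of both transcripts and library 2 the least.

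**Figure D1:**
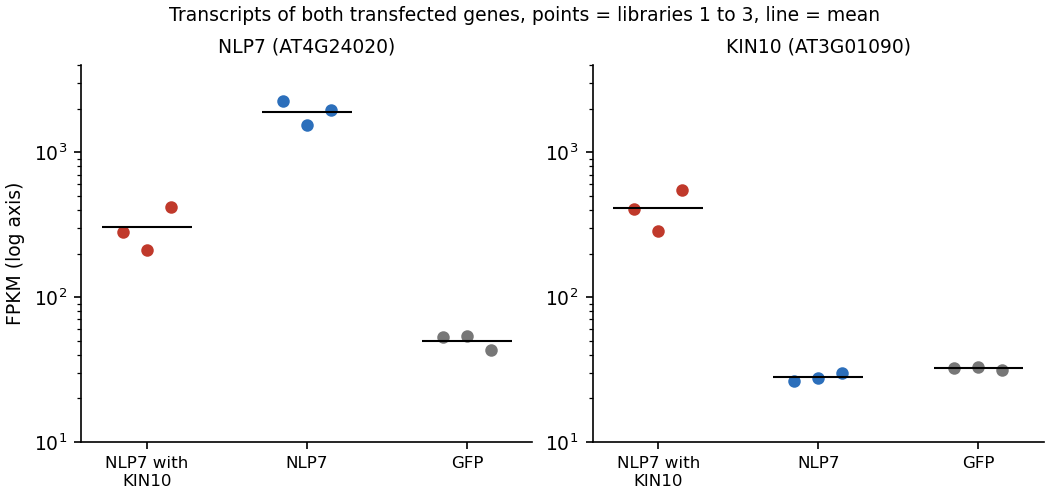
FPKM of the NLP7 and KIN10 transcripts on a log axis in NLP7 with KIN10, NLP7 alone and GFP; points are the 3 libraries of a group and lines are means. NLP7 lay between 212 and 417 FPKM with KIN10 and between 1536 and 2261 FPKM without it, and KIN10 between 287 and 546 FPKM where it was transfected.

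Of the 1722 genes with enough counts for a test, 1488 fell (86.4%) and 66 rose (3.83%) with KIN10, and 168 were not called. The median log2 fold change was -1.47. Among the falls, 1255 were at least 2-fold, 578 at least 4-fold and 123 at least 16-fold by the fitted change, and 369 were larger than the fall of NLP7. Of the rises, 17 were at least 2-fold. Libraries of both groups did not overlap for 1527 of the 1554 called genes. In mean FPKM over all 2065 genes, 1478 (71.6%) were at least 2-fold lower and 22 (1.07%) at least 2-fold higher without overlap. The genes were listed through comparisons of the same libraries with GFP, which favours lower calls among genes raised by NLP7, so these shares hold for the listed genes alone. The counts also rest on scaling to mapped fragments: scaled by TMM over the listed genes, which centres their median at 0.01 and so moves each change up by about the -1.47 it removes, 554 genes were lower and 494 higher.

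**Figure D2:**
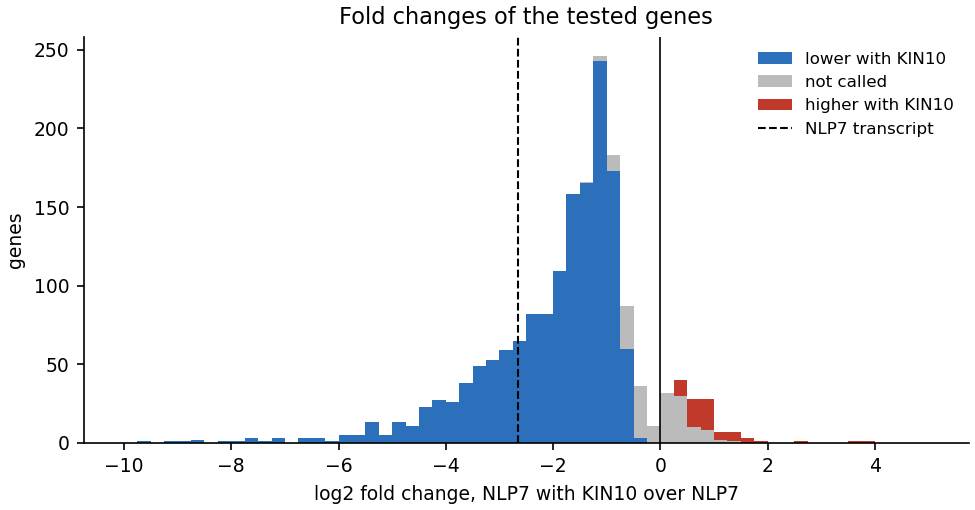
Fitted log2 fold change of NLP7 with KIN10 over NLP7 alone for 1722 tested genes, in bins coloured by call, with the NLP7 transcript as a dashed line; values of genes at 0 counts in a group depend on the fit's prior count. Most genes lay below 0, with the median at -1.47 and NLP7 at -2.66.

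Of 1552 tested genes that the authors list as raised by NLP7, 1481 fell with KIN10, 2 rose and 69 were not called, with a median log2 fold change of -1.61. Tested members of the nitrate assimilation, reductant, regulator, cytokinin and ribosome biogenesis lists below were all among these 1552 genes. For them, these counts are a nearer comparison than those over all tested genes. Of 115 tested genes listed as lowered by NLP7, 46 rose, none fell and 69 were not called, with a median of 0.43 (edgeR; TMM moves this median up too). Both classes were set by the same NLP7 and GFP libraries, which favours falls among the raised and rises among the lowered genes. The 338 raised genes that were also listed as raised by NLP7 with KIN10 had 315 falls, 2 rises and a median of -2.54. For the 1210 raised genes listed for NLP7 alone, the counts were 1162 falls, no rise and 48 not called, with a median of -1.44. Whether a raised gene was also listed with KIN10 was set by the same libraries of NLP7 with KIN10. This favours falls among those not listed, so the split is a description.

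The share of the NLP7 response that was left was low for the raised genes and higher for the lowered ones. For each gene, the mean of NLP7 with KIN10 minus that of GFP was divided by the mean of NLP7 alone minus that of GFP. Over 747 raised genes with at least 5 FPKM in NLP7 alone, the NLP7 transcript left out, a median of 11.8% was left, with quartiles of 5.69 and 18.4%. That lies beside the 13.6% left of the NLP7 transcript. In 637 of these genes the share was between 0 and 50%, in 10 it was above 50%, and in 100 (13.4%) the mean with KIN10 was below that with GFP. The median was 13.9% over the 188 genes at 50 FPKM or more, 10.3% over the 155 genes under 0.5 FPKM in GFP, and 12.6% over the 280 genes at 5 FPKM or more in GFP. Over the 47 lowered genes with at least 5 FPKM in GFP, the median share left was 67.5%, with quartiles of 52.6 and 77.2%. These shares hold the same NLP7 and GFP libraries that put the genes on the lists, so they are descriptions and the difference between raised and lowered genes was not tested.

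**Figure D3:**
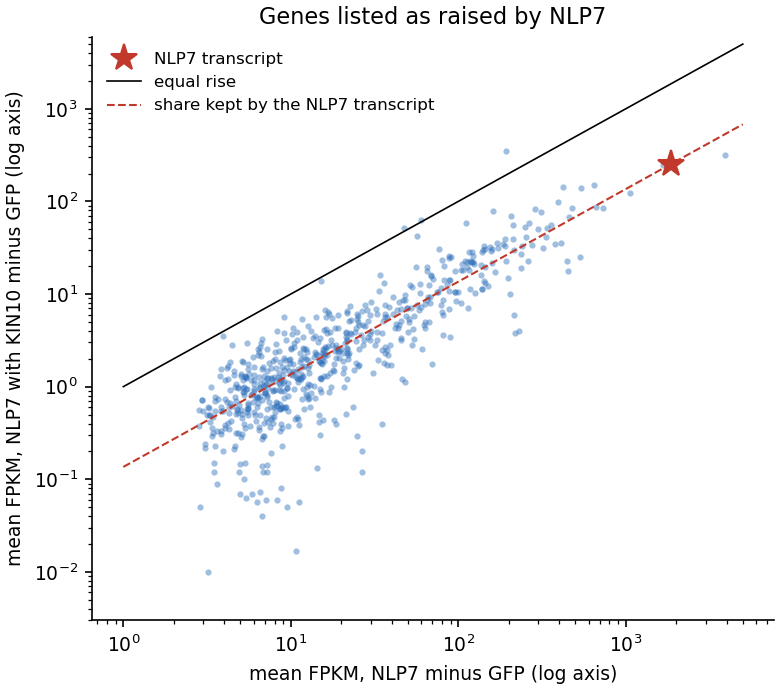
Mean FPKM above GFP in NLP7 with KIN10 (vertical, log axis) against that in NLP7 alone (horizontal, log axis) for 645 genes listed as raised by NLP7; 102 genes with no mean above GFP in NLP7 with KIN10 are not drawn. Points scatter on both sides of the dashed line, the 13.6% share of the NLP7 transcript (star), and few reach the line of equal rise. Over all 747 genes, drawn or not, the quartiles of the share were 5.69 and 18.4%.

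For raised genes, library 3 of NLP7 with KIN10 stood apart from the others of its group in the same direction as its NLP7 level. It was the highest of its group for 592 (79.3%) of the 747 raised genes and for 15 (31.9%) of the 47 lowered genes. The libraries of NLP7 alone differed too: in 61.7% of the 747 genes, library 2 was lowest and library 1 highest. Without library 3 of NLP7 with KIN10, the median share left of the raised genes was 8.33%, that of the NLP7 transcript 10.5%, and that of the lowered genes 67.2%. The counts without it were 1556 genes lower and 60 higher. KIN10 was highest in this library too, and its depth was the lowest of the group, and the part of each was not tested.

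All 5 listed genes of nitrate reduction and ammonium assimilation fell, where 86.4% of all tested genes and 1481 of the 1552 raised by NLP7 did. Their median log2 fold change was -1.16, against -1.47 over all tested genes and -1.61 over those raised by NLP7. It was 0.32 with TMM (3 higher, 1 lower) and 0.11 with DESeq2's own size factors (1 higher, 1 lower), which recentre the listed genes. NIA1 (AT1G77760), a nitrate reductase, measured 299, 305 and 369.9 FPKM in NLP7 with KIN10, against 772, 715 and 692 FPKM in NLP7 alone, with 224, 170.0 and 161 FPKM in GFP. The groups did not overlap, and the fall was 2.24 ± 0.172-fold (log2 fold change -1.16 ± 0.14, adjusted p = 1.31e-06, edgeR). NIR1 (AT2G15620), the nitrite reductase that takes the next step to ammonium, measured 332, 326 and 386 FPKM in NLP7 with KIN10, against 853, 779 and 905 FPKM in NLP7 alone. It fell 2.43 ± 0.169-fold and kept 23.1 ± 3.4% of its rise over GFP, and NIA1 kept 25.9 ± 5.08%. GS2, the plastid glutamine synthetase that fixes ammonium, averaged 76.1 ± 11.4 FPKM in NLP7 with KIN10 and 139.7 ± 7.73 FPKM in NLP7 alone. It had a smaller fall of 1.84 ± 0.169-fold (adjusted p = 1.95e-05, edgeR) and kept 27.7 ± 7.75% of its rise. ASN2, an asparagine synthetase, averaged 24.0 ± 9.56 FPKM in NLP7 with KIN10 and 110.1 ± 6.14 FPKM in NLP7 alone, a fall of 4.59 ± 1.07-fold. ASN1, the asparagine synthetase gene known as dark-inducible and as a marker of SnRK1 activity, stood at 74.4, 70.3 and 69.5 FPKM in NLP7 with KIN10, against 149, 145 and 154 FPKM in NLP7 alone. These values overlap the 69.7, 74.8 and 58.9 FPKM with GFP, and ASN1 fell 2.09 ± 0.0599-fold (adjusted p = 1.56e-06, edgeR). Of the list of 26 starvation genes that SnRK1 is known to induce, ASN1 was the one in the tables.

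WR3 (NAR2.1, AT5G50200), the partner protein that high-affinity nitrate transporters need, measured 430, 465 and 481 FPKM in NLP7 with KIN10, against 1161, 1018 and 1133 FPKM in NLP7 alone and 349, 343 and 434 FPKM in GFP. With KIN10 it fell 2.41 ± 0.124-fold (adjusted p = 2.35e-07, edgeR) and its values overlapped those with GFP. NRT2:1, the main high-affinity transporter, was barely detected in leaf cells, with 2 counts over the 3 libraries of NLP7 with KIN10 against 47 in NLP7 alone and 0 in GFP (adjusted p = 2.62e-05, edgeR). All 8 listed genes that supply reductant in plastids fell, where 86.4% of all tested genes and 1481 of the 1552 raised by NLP7 did. Their median log2 fold change was -1.25 (0.24 with TMM and 0.03 with DESeq2's own size factors). G6PD3 (AT1G24280), a plastid glucose-6-phosphate dehydrogenase that opens the oxidative pentose phosphate pathway, measured 7.67, 7.26 and 13.9 FPKM in NLP7 with KIN10, against 88.8, 72.8 and 80.1 FPKM in NLP7 alone. This was the largest fall among the 8, 8.38 ± 1.93-fold (log2 fold change -3.07 ± 0.22, adjusted p = 1.95e-08, edgeR). RFNR2, a root-type ferredoxin reductase, averaged 2.93 ± 1.45 FPKM in NLP7 with KIN10 and 19.8 ± 2.86 FPKM in NLP7 alone. Its relative RFNR1 averaged 109.5 ± 3.15 FPKM in NLP7 with KIN10 and 247 ± 15.9 FPKM in NLP7 alone, and the ferredoxin FD3 147 ± 22.5 FPKM and 317 ± 41.0 FPKM in the same order. G6PD1, at 2.14 ± 0.891 FPKM in NLP7 with KIN10 and 5.23 ± 0.633 FPKM in NLP7 alone, kept the largest share of its rise in this list, 32.3 ± 11.6%.

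Of 10 listed nitrate-responsive regulators, 9 fell and 1 was not called, where 86.4% of all tested genes and 1481 of the 1552 raised by NLP7 fell. The median log2 fold change was -1.58 (-0.10 with TMM, with 5 lower and 3 higher, and -0.31 with DESeq2's own size factors, with 5 lower and 2 higher). AT3G25790, a GARP-family relative of the nitrate-response repressor HRS1, measured 25.5, 21.2 and 48.3 FPKM in NLP7 with KIN10, against 182, 159 and 178 FPKM in NLP7 alone and 0.26, 0.28 and 0.19 FPKM in GFP. Its groups were far apart, and it fell 5.47 ± 1.47-fold (log2 fold change -2.45 ± 0.24, adjusted p = 2.52e-07, edgeR). HRS1 itself averaged 7.80 ± 1.81 FPKM in NLP7 with KIN10 and 27.8 ± 1.9 FPKM in NLP7 alone and kept 27.5 ± 3.93% of its rise. The LOB-domain repressors of anthocyanin and nitrogen genes differed in size of fall: LBD38 was 6.32 ± 1.34-fold lower (2.52 ± 0.843 FPKM in NLP7 with KIN10 and 15.9 ± 2.44 FPKM in NLP7 alone). LBD37 was 1.76 ± 0.105-fold lower, at 116 ± 7.37 FPKM in NLP7 with KIN10 and 205 ± 16.5 FPKM in NLP7 alone, with 98.0 ± 11.6 FPKM in GFP. BT1, a BTB-domain protein known to limit nitrate uptake genes, measured 93.9, 91.5 and 119.8 FPKM in NLP7 with KIN10, against 279.8, 223 and 254 FPKM in NLP7 alone, with no overlap. The GATA factors that govern chloroplast genes were GNC, which fell 4.82 ± 1.02-fold, and CGA1, which was not called at 1.45 ± 0.23 FPKM in NLP7 with KIN10 and 1.85 ± 0.285 FPKM in NLP7 alone (adjusted p = 0.16, edgeR). NLP3 (AT4G38340), a paralogue of NLP7, was low throughout and fell, with 0.09, 0.13 and 0.41 FPKM in NLP7 with KIN10 and 1.29, 0.46 and 0.86 FPKM in NLP7 alone (adjusted p = 0.000697, edgeR). That call was lost with TMM (-0.65, adjusted p = 0.202) and with DESeq2's own size factors (-0.83, adjusted p = 0.248).

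All 4 tested cytokinin genes fell, where 86.4% of all tested genes and 1481 of the 1552 raised by NLP7 did. With TMM and with DESeq2's own size factors, 2 of the 4 stayed lower. The median was -2.14 scaled to mapped fragments, -0.65 with TMM and -0.87 with DESeq2's own size factors. IPT3 (AT3G63110), which makes cytokinin in response to nitrate, measured 0.32, 0.21 and 0.57 FPKM in NLP7 with KIN10, against 3.02, 3.41 and 3.34 FPKM in NLP7 alone and 0 in all GFP libraries. The groups did not overlap, and the fall was 8.88 ± 2.6-fold (adjusted p = 9.25e-07, edgeR). CKX4, a cytokinin oxidase, averaged 72.0 ± 6.69 FPKM in NLP7 with KIN10 and 170.2 ± 24.4 FPKM in NLP7 alone. ARR7, a type-A response regulator that dampens cytokinin signalling, measured 2.06, 1.09 and 1.56 FPKM in NLP7 with KIN10, against 4.52, 3.75 and 5.86 FPKM in NLP7 alone and 1.53 to 2.73 FPKM in GFP.

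All 12 listed genes of ribosome biogenesis fell, where 86.4% of all tested genes and 1481 of the 1552 raised by NLP7 did. Their median log2 fold change was -1.26. With TMM it was 0.23 (3 lower and 2 higher), and with DESeq2's own size factors 0.02 (4 lower and none higher). They kept a median of 4.88% of their rise over GFP, against 11.2% over all tested genes raised by NLP7. Several lay at the GFP level. NAP57, the pseudouridine synthase of small nucleolar particles, measured 2.78, 3.3 and 3.35 FPKM in NLP7 with KIN10, against 14.8, 11.9 and 15.3 FPKM in NLP7 alone and 3.07, 3.47 and 3.29 FPKM in GFP. Its values with KIN10 overlapped those with GFP and not those with NLP7 alone (log2 fold change -2.16 ± 0.17, adjusted p = 3.86e-08, edgeR). NOP56, a core protein of these particles, averaged 8.06 ± 0.631 FPKM in NLP7 with KIN10, 26.7 ± 2.39 FPKM in NLP7 alone and 8.63 ± 1.37 FPKM in GFP. FIB2, the fibrillarin that methylates ribosomal RNA, averaged 1.26 ± 0.3 FPKM in NLP7 with KIN10, 5.33 ± 0.441 FPKM in NLP7 alone and 1.91 ± 0.541 FPKM in GFP. NRPA1, the large subunit of RNA polymerase I, averaged 2.87 ± 0.215 FPKM in NLP7 with KIN10 and 6.2 ± 0.768 FPKM in NLP7 alone (adjusted p = 2.32e-05, edgeR).

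**Figure D4:**
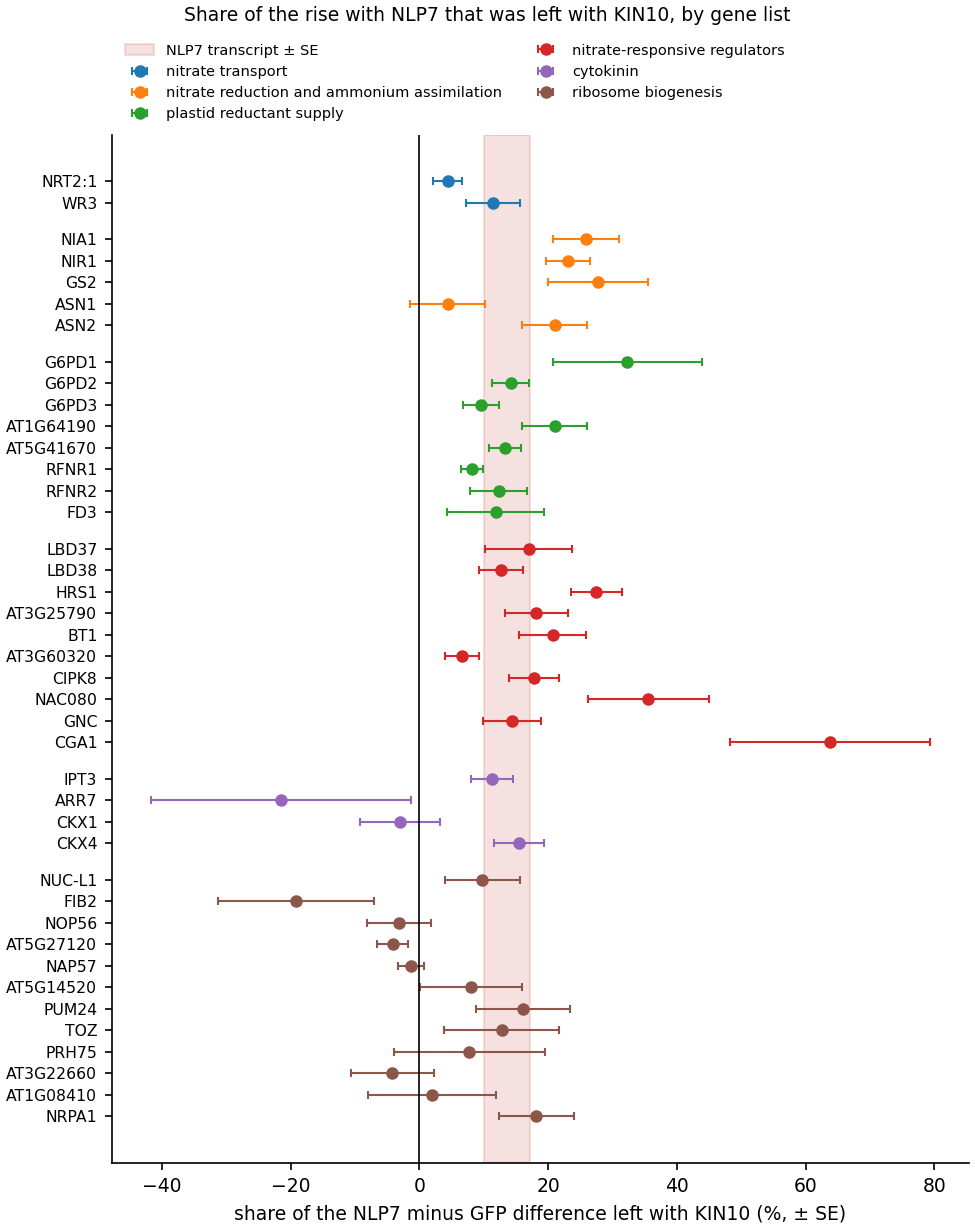
Share of the difference between NLP7 alone and GFP that was left in NLP7 with KIN10 (horizontal, %, points with SE from 3 libraries a group) for tested genes of 6 gene lists that the authors list as raised by NLP7; the band is the NLP7 transcript, 13.6 ± 3.59%. Assimilation genes lay at 4.4 to 27.7%, ribosome biogenesis genes had a median of 4.88%, and CGA1 lay at 63.8%.

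Of the 4 listed defence genes, 2 fell, none rose and 2 were not called, where 86.4% of all tested genes fell (1 lower and 2 higher with TMM and with DESeq2's own size factors). BGL2 (PR2), a defence glucanase, measured 2.33, 2.05 and 3.85 FPKM in NLP7 with KIN10, against 53.9, 47.3 and 48.0 FPKM in NLP7 alone and 1.45, 1.57 and 1.82 FPKM in GFP. That 18.1 ± 3.77-fold fall (log2 fold change -4.21 ± 0.22, adjusted p = 1.54e-09, edgeR) left 2.35 ± 1.19% of its rise. EDS16, the salicylic acid synthesis enzyme, fell 2.04 ± 0.0639-fold to 184 ± 4.0 FPKM in NLP7 with KIN10, against 377 ± 18.7 FPKM in NLP7 alone and 174 ± 16.1 FPKM in GFP. RBOHD, the oxidase of the defence oxidative burst, was not called at 92.8, 87.3 and 90.6 FPKM in NLP7 with KIN10 and 106, 99.98 and 110.3 FPKM in NLP7 alone, although the libraries did not overlap (adjusted p = 0.0921, edgeR). PR5, the remaining defence gene, was at 0.313 ± 0.101 FPKM in NLP7 with KIN10 and 0.537 ± 0.242 FPKM in NLP7 alone and was called as lower only without NLP7 library 2 (adjusted p = 0.132 with all libraries and 0.0415 without it, edgeR). The 3 tested abscisic acid and cold genes fell, where 86.4% of all tested genes and 1481 of the 1552 raised by NLP7 did. With TMM and with DESeq2's own size factors 1 of the 3 was called, and LTI65 (adjusted p = 0.443 and 0.424) and KIN1 (0.13 and 0.14) were not. LTI78 (RD29A) fell 8.71 ± 1.6-fold, at 0.507 ± 0.152 FPKM in NLP7 with KIN10 and 4.41 ± 0.482 FPKM in NLP7 alone. KIN1, a cold-induced gene unrelated to the kinase KIN10, and LTI65 (RD29B) were under 3 FPKM on average in both groups. LOX2, the lipoxygenase of jasmonate synthesis, averaged 73.0 ± 2.9 FPKM in NLP7 with KIN10 and 118 ± 5.56 FPKM in NLP7 alone.

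Of the 4 mesophyll and photosynthesis genes, 3 fell and 1 rose, where 86.4% of all tested genes fell and 3.83% rose, with a median log2 fold change of -1.10 (0.37 with TMM and 0.16 with DESeq2's own size factors). CAB1, a light-harvesting protein, measured 393, 371 and 487 FPKM in NLP7 with KIN10, against 976, 909 and 899 FPKM in NLP7 alone and 399.6, 365 and 412 FPKM in GFP. Its values with KIN10 overlapped those with GFP. LHCB2.1, another antenna protein, averaged 55.2 ± 11.9 FPKM in NLP7 with KIN10 and 153 ± 11.0 FPKM in NLP7 alone, and GAPA, a Calvin cycle dehydrogenase, 64.1 ± 13.6 FPKM and 132 ± 10.9 FPKM in the same order. RBCS2B, a Rubisco small subunit, measured 289.7, 282 and 619 FPKM in NLP7 with KIN10, against 288, 209.8 and 234 FPKM in NLP7 alone. The groups overlapped and library 3 set the rise: log2 fold change 0.70 ± 0.24 with all libraries (adjusted p = 0.0141, edgeR) and 0.23 without it (adjusted p = 0.125). Leaving out NLP7 library 2 also ended the call (0.60, adjusted p = 0.0677). RBCS2B lies in a tandem array of near-identical genes, and its counts may be split among them. GL2, an epidermal cell fate factor, was at 0 counts in every library of NLP7 with KIN10 and in GFP, against 1.66, 1.49 and 1.82 FPKM in NLP7 alone, so it was at least 69.3-fold lower with KIN10 (floor of 3 counts over the group).

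The largest falls among named genes at 5 FPKM or more were mostly of genes nearly silent with GFP. ACO1, a 1-aminocyclopropane-1-carboxylate oxidase of ethylene synthesis, measured 0.02, 0.03 and 0.12 FPKM in NLP7 with KIN10, against 12.1, 9.45 and 11.95 FPKM in NLP7 alone and 0 in GFP. It was 197 ± 112-fold lower (log2 fold change -7.63 ± 0.36, adjusted p = 2.53e-09, edgeR), and the libraries with KIN10 held 6 counts in all. Next came CES, a brassinosteroid-linked bHLH factor with 3 counts over NLP7 with KIN10 and 266 over NLP7 alone (adjusted p = 5.61e-08, edgeR), and ATL5, a RING-type protein with 11 and 885 counts. UMAMIT35, of a family of amino acid transporters, measured 0.74, 0.65 and 2.2 FPKM in NLP7 with KIN10, against 55.8, 40.0 and 42.4 FPKM in NLP7 alone and 0 in GFP. It kept 2.6 ± 1.12% of its rise, less than the NLP7 transcript kept of its own. The other members were the carboxypeptidase-like scpl37 (log2 fold change -5.81 ± 0.38), the glycerol-3-phosphate permease G3Pp2 (-5.48 ± 0.39), the acyltransferase AACT1 (-5.31 ± 0.39) and the cellulase CEL3 (-5.09 ± 0.27). Then followed the LOB-domain gene LBD15 (-4.71 ± 0.36), EDA36 (-4.53 ± 0.38) and the nicotianamine synthase NAS2 (-4.43 ± 0.39), which makes a metal chelator. CWLP, a cell wall linker protein, was the most abundant of these, at 18.7, 16.1 and 26.2 FPKM in NLP7 with KIN10, against 572, 366 and 432 FPKM in NLP7 alone and 2.56, 2.67 and 2.44 FPKM in GFP. Its groups did not overlap, and it fell 22.5 ± 4.49-fold.

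In absolute level, the legume lectin gene AT3G16530 lost most. It measured 1486, 1389.8 and 1664 FPKM in NLP7 with KIN10, against 5846, 4676 and 4813 FPKM in NLP7 alone and 1170.5, 1145 and 1275 FPKM in GFP. All libraries with KIN10 stood above GFP and below NLP7 alone, with a fall of 3.38 ± 0.303-fold (log2 fold change -1.76 ± 0.12, adjusted p = 1.08e-08, edgeR). QWRF7, of a plant-specific family named for its QWRF motif, measured 197, 168 and 376 FPKM in NLP7 with KIN10, against 1887, 1467 and 1679.8 FPKM in NLP7 alone and at most 0.04 FPKM in GFP. It kept 14.7 ± 4.02% of its rise. AT5G65980 (PILS7), of a family of auxin carriers, averaged 132 ± 41.1 FPKM in NLP7 with KIN10 and 1074 ± 138 FPKM in NLP7 alone.

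Of the 66 rises, 46 were of genes that the authors list as lowered by NLP7. HB-12, a homeodomain-leucine zipper factor of water stress, measured 24.9, 28.9 and 32.8 FPKM in NLP7 with KIN10, against 14.7, 16.1 and 19.4 FPKM in NLP7 alone and 38.5, 37.2 and 47.9 FPKM in GFP. The 3 groups did not overlap, and HB-12 rose 1.72 ± 0.199-fold (log2 fold change 0.78 ± 0.18, adjusted p = 0.00069, edgeR). GH3.3, which conjugates auxin to amino acids, measured 16.3, 15.1 and 15.6 FPKM in NLP7 with KIN10, against 7.45, 11.4 and 8.8 FPKM in NLP7 alone and 21.6, 34.5 and 25.5 FPKM in GFP. IAA9, an auxin-signalling repressor, averaged 18.3 ± 1.48 FPKM in NLP7 with KIN10, 13.3 ± 1.51 FPKM in NLP7 alone and 26.7 ± 1.22 FPKM in GFP. ORS1, a gene of organ size, rose 1.57 ± 0.205-fold, the cation exchanger CAX7 1.5 ± 0.101-fold, the Dof factor DOF4.7 1.48 ± 0.0943-fold and the ACT-domain gene ACR6 1.39 ± 0.0592-fold. AT5G01210, the most abundant of these, averaged 201 ± 37.0 FPKM in NLP7 with KIN10, 139.6 ± 20.4 FPKM in NLP7 alone and 301 ± 17.0 FPKM in GFP. BGLU28, a beta-glucosidase linked to glucosinolate breakdown, went past GFP on average. It measured 34.5, 29.3 and 21.1 FPKM in NLP7 with KIN10, against 9.72, 11.98 and 7.91 FPKM in NLP7 alone and 16.9, 23.7 and 22.9 FPKM in GFP, so that its values with KIN10 overlapped those with GFP (log2 fold change 1.49 ± 0.20, adjusted p = 4.91e-06, edgeR).

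In 24 of the 66 rises, KIN10 itself among them, the mean in NLP7 with KIN10 was above those of both other groups. Of the 66, 18 were listed only for a higher level in NLP7 with KIN10 than in GFP, and this choice favours a rise here. HSP70 (AT3G12580), a cytosolic chaperone, measured 109, 104 and 116 FPKM in NLP7 with KIN10, against 59.2, 59.3 and 68.9 FPKM in NLP7 alone and 56.4, 58.7 and 46.8 FPKM in GFP. The lowest library of NLP7 with KIN10 was above the highest of both other groups, with a rise of 1.75 ± 0.107-fold over NLP7 alone (log2 fold change 0.81 ± 0.13, adjusted p = 4.04e-05, edgeR). HSP17.4 (AT3G46230), a small heat shock protein, measured 83.3, 68.5 and 103 FPKM in NLP7 with KIN10, against 34.9, 27.0 and 37.2 FPKM in NLP7 alone and 32.4, 30.8 and 37.1 FPKM in GFP. It rose 2.57 ± 0.389-fold (log2 fold change 1.35 ± 0.19, adjusted p = 7.55e-06, edgeR). The heat shock list was not uniform. HSP23.6-MITO, a mitochondrial chaperone that NLP7 raised, fell to 2.89 ± 0.941 FPKM in NLP7 with KIN10, against 12.4 ± 2.08 FPKM in NLP7 alone, and HSA32 was not called at 2.68 ± 0.458 FPKM and 1.83 ± 0.421 FPKM in the same order (adjusted p = 0.0614, edgeR). Whether protoplast handling differed between groups was not tested.

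PRR9 (AT2G46790), a morning repressor of the circadian clock, measured 3.91, 3.2 and 3.98 FPKM in NLP7 with KIN10, against 0.85, 1.13 and 1.3 FPKM in NLP7 alone and 0.22, 0.39 and 0.48 FPKM in GFP. The groups did not overlap, and PRR9 rose 3.38 ± 0.465-fold (log2 fold change 1.76 ± 0.24, adjusted p = 5.67e-06, edgeR). It was the one member of the clock list in the tables, and with RBCS2B one of the 2 genes raised by NLP7 that rose further. CDF3, a Dof repressor of the flowering pathway, averaged 7.97 ± 1.02 FPKM in NLP7 with KIN10, 5.60 ± 0.148 FPKM in NLP7 alone and 3.43 ± 0.222 FPKM in GFP (adjusted p = 0.00876, edgeR). AT1G72660, annotated as a P-loop nucleoside triphosphate hydrolase and named here after its values were seen, measured 3.0, 1.98 and 4.26 FPKM in NLP7 with KIN10, against 0.27, 0.74 and 0.37 FPKM in NLP7 alone and 0.56, 0.32 and 0.69 FPKM in GFP. That is 6.70 ± 2.53-fold higher than in NLP7 alone. AT5G43064, annotated as an uncharacterized protein, rose 1.78 ± 0.244-fold, a call that was lost without NLP7 library 2 (adjusted p = 0.0583) and without NLP7 with KIN10 library 2 (adjusted p = 0.0592, edgeR). Its mean FPKM of 223 in NLP7 with KIN10 and 125 in NLP7 alone rest on only 120 and 68 counts over the libraries of each group.

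**Figure D5:**
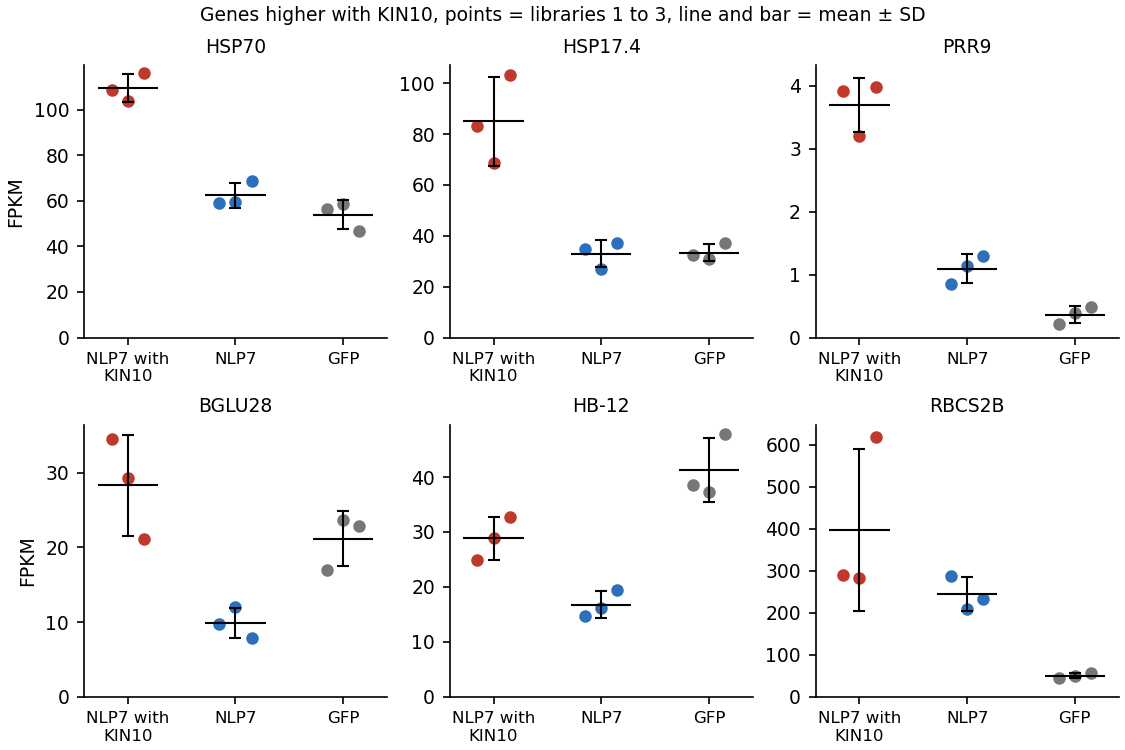
FPKM of 6 genes that rose with KIN10, in NLP7 with KIN10, NLP7 alone and GFP; points are libraries 1 to 3 of each group, and lines with bars are the mean ± SD. HSP70, HSP17.4 and PRR9 were above both other groups, HB-12 lay between them, BGLU28 overlapped GFP, and RBCS2B had 1 library at 619 FPKM.

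A few genes raised by NLP7 kept most of their rise, all named after their values were seen. CYP82C2, a cytochrome P450 of defence metabolism, measured 114, 103 and 97.5 FPKM in NLP7 with KIN10, 108, 87.6 and 107 FPKM in NLP7 alone and 42.9, 40.8 and 39.9 FPKM in GFP. Both NLP7 groups overlapped, and the log2 fold change was 0.05 ± 0.13 (adjusted p = 0.704, edgeR). AT3G24420, an alpha/beta-hydrolase gene, averaged 91.5 ± 8.28 FPKM in NLP7 with KIN10, 87.1 ± 3.69 FPKM in NLP7 alone and 39.6 ± 21.8 FPKM in GFP. AT3G12320 (LNK3), a clock-regulated gene, averaged 26.4 ± 4.76 FPKM in NLP7 with KIN10, 27.8 ± 1.28 FPKM in NLP7 alone and 12.6 ± 1.38 FPKM in GFP. AT5G02940, annotated as a POLLUX-like ion channel, averaged 7.21 ± 1.19 FPKM in NLP7 with KIN10, 7.67 ± 0.0907 FPKM in NLP7 alone and 3.71 ± 0.113 FPKM in GFP. RBOHD, given above, kept 73.3 ± 5.0% of its rise. A missed threshold does not show that these levels were equal.

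At the other end, 4 genes were listed by the authors as higher than GFP with NLP7 and lower than GFP with NLP7 and KIN10 (edgeR called all 4 lower than NLP7 alone). XRI1, an X-ray inducible gene needed in meiosis, measured 1.68, 1.49 and 2.56 FPKM in NLP7 with KIN10, against 15.9, 12.4 and 14.3 FPKM in NLP7 alone and 4.85, 5.31 and 4.76 FPKM in GFP. The 3 groups did not overlap, and XRI1 fell 7.44 ± 1.39-fold (log2 fold change -2.91 ± 0.22, adjusted p = 2.55e-08, edgeR). PARP2, a poly(ADP-ribose) polymerase that marks DNA breaks, averaged 2.98 ± 1.14 FPKM in NLP7 with KIN10, 16.8 ± 2.3 FPKM in NLP7 alone and 7.04 ± 0.595 FPKM in GFP. AT4G22960, annotated as a FAM63A-like protein, was at 0.16 ± 0.0458 FPKM in NLP7 with KIN10, 2.93 ± 0.422 FPKM in NLP7 alone and 0.46 ± 0.229 FPKM in GFP. The position below GFP is what put these genes in the class and is given without a test.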

How the data were processed

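RNA from 9 libraries of transfected protoplasts was used, 3 in each of 3 groups taken from the labels. Per the labels' design text, sequencing was on a BGISEQ-500 and reads were mapped with HISAT and Bowtie2, and TAIR10 is named in the submitters' processing notes. For the tool versions, the strand and the counting, the sources used here give nothing. The authors deposited FPKM, TPM and expected counts per library for the genes they selected. The deposited tables also hold the authors' log2 fold changes, p-values and adjusted p-values against GFP. The headers name DESeq2 for these and the design text names NOISeq. Values of samples that the series does not list, in 18 columns, were not used. Gene identifiers of all 2065 genes matched the reference annotation, and 2040 had the same start and end there. Shared genes of both tables had equal values (375 of 375, tolerance 0).

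Library sizes were recovered from expected counts, FPKM and transcript length (genes with at least 200 counts). Expected counts, not whole in 2.57% of genes, were rounded and tested with edgeR 4.0.16 (glmQLFit, glmQLFTest, R 4.3.3) on all 9 libraries, with these library sizes and no further scaling factor, since most listed genes move together. Genes were kept by filterByExpr (1722, leaving out 343 with mean FPKM up to 2.54 in the compared groups), and p-values were adjusted by the Benjamini-Hochberg method with a threshold of 0.05. The adjustment covers the listed genes tested. On simulated data for these 1722 genes, 81% of 2-fold and 97% of 4-fold changes and 0.723% of unchanged genes were called. There, 100 genes were changed 2-fold and 100 genes 4-fold, up and down in equal number, and 1522 were unchanged. Genes were drawn independently, whereas most listed genes moved together in the real data, so these rates may not carry over. An exact permutation test of 3 against 3 cannot go below p = 0.1 and was not used. Within groups, every pair of libraries was further apart than counting error (a reduced chi-square of 2.97 to 22.1), so none was a copy.

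Folds are ratios of mean FPKM with an SE from the library SDs. The share left is descriptive, with an SE of the same kind. Floors of 3 counts cover counting error only. Named genes were NLP7 and KIN10, called members of 18 gene lists (280 genes, 67 in the tables), the 12 symbol-bearing called genes with the largest rise and fall at 5 FPKM or more without overlap, and the 5 with the largest FPKM difference in each direction. Lists for phosphate status and glutathione transferases had no gene in the tables. Members and lists were chosen with earlier results of these data known. Alternatives included limma 3.58.1 on log2 of FPKM or TPM with a pseudocount, and DESeq2 1.42.0. A result for 1 gene is not reported here.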

Additional observations from a re-analysis of the deposited data

How the results depend on the processing

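The choice that changed most was scaling. TMM over the listed genes gave 494 genes higher and 554 lower, and DESeq2 with its own size factors gave 308 and 591. Both recentre the listed genes near 0. With TMM the sign turned for WR3 (0.22), NIA1 (0.32), NIR1 (0.20), GS2 (0.58), ASN1 (0.42), RFNR1 (0.32), FD3 (0.37), G6PD1 (0.16), LBD37 (0.67), BT1 (0.17), CGA1 (1.13), CKX4 (0.24), NRPA1 (0.39), EDS16 (0.45), RBOHD (1.26), PR5 (0.72), LOX2 (0.79), CAB1 (0.32), GAPA (0.42), AT3G12320 (1.39) and AT5G02940 (1.38). With DESeq2's own size factors it turned for WR3 (0.01), NIA1 (0.11), GS2 (0.37), ASN1 (0.21), RFNR1 (0.11), FD3 (0.16), LBD37 (0.46), CGA1 (0.92), CKX4 (0.04), NRPA1 (0.18), EDS16 (0.24), RBOHD (1.05), PR5 (0.54), LOX2 (0.58), CAB1 (0.11), GAPA (0.21), AT3G12320 (1.19) and AT5G02940 (1.17). Of these, NIA1, GS2, ASN1, RFNR1, FD3, LBD37, CGA1, NRPA1, EDS16, RBOHD, LOX2, CAB1, GAPA, AT3G12320 and AT5G02940 were called higher with TMM. With DESeq2's own size factors, GS2, LBD37, CGA1, EDS16, RBOHD, LOX2, AT3G12320 and AT5G02940 were called higher. The NLP7 transcript stayed lower with TMM and with DESeq2's own size factors, at -1.20 and -1.41. A scaling inferred from the authors' fold changes against GFP, added after seeing the data, gave 75 higher and 1480 lower. It was the median gap to the FPKM ratios, over 377 listed genes for NLP7 alone and 44 for NLP7 with KIN10. DESeq2 with mapped fragments, limma on FPKM or TPM, other count filters and a fit of 6 libraries gave 57 to 78 higher and 1440 to 1732 lower. The rule of 2-fold means without overlap gave 22 higher. Leaving out each library in turn gave 49 to 69 higher, 1435 to 1556 lower and -2.96 to -2.46 for NLP7. Genes near no change turned sign in these fits, with ranges of -0.04 to 0.10 for CYP82C2, -0.01 to 0.11 for AT3G24420, -0.23 to 0.02 for AT3G12320 and -0.23 to 0.01 for AT5G02940. The calls on RBCS2B, AT5G43064 and PR5 also changed there. HSA32 was called higher with TMM (2.02, adjusted p = 8.71e-07), with DESeq2's own size factors (1.82, adjusted p = 2.19e-10) and with the scaling inferred from the authors' fold changes (adjusted p = 0.0428). It was also called higher with limma after adding 1 to FPKM (adjusted p = 0.0407) or TPM (0.0416), with the replicate block (0.0423) and without NLP7 with KIN10 library 2 (0.0429). CYP82C2 (1.56 and 1.34) and AT3G24420 (1.55 and 1.34) were called higher with TMM and with DESeq2's own size factors. Calls lost under one or both with the sign kept were those of NIR1, G6PD1, BT1, ARR7, NLP3, NOP56, LTI65, KIN1 and LHCB2.1. Same-numbered libraries of the compared groups correlated at -0.0681, 0.257 and 0.0189, and differently numbered ones at -0.232 to 0.222. With 3 libraries a group, these values cannot decide whether same-numbered libraries were handled together. The replicate block gave 65 higher and 1485 lower. Genes under a few FPKM, including the 343 not tested, are limited by depth.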

Other observations

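Further genes, chosen after their values were seen, were higher in NLP7 with KIN10 than in both other groups on average. STP14, of the monosaccharide transporter family, was at 0.39, 0.6 and 0.79 FPKM in NLP7 with KIN10, against 0.06, 0.07 and 0.0 FPKM in NLP7 alone and 0.03, 0.07 and 0.14 FPKM in GFP (log2 fold change 3.61 ± 0.61, adjusted p = 5.02e-05, edgeR), with 54 counts over NLP7 with KIN10 and 4 over NLP7 alone. AT5G06980, which has no symbol in the tables, was at 4.56, 4.42 and 4.67 FPKM in NLP7 with KIN10, against 2.4, 2.39 and 3.06 FPKM in NLP7 alone and 0.86, 1.51 and 1.74 FPKM in GFP (log2 fold change 0.80 ± 0.24, adjusted p = 0.00522, edgeR). Other genes, lowered by NLP7, came back to the range of GFP. AT5G26220 (GGCT2;1), which degrades glutathione, was at 20.2, 14.7 and 14.1 FPKM in NLP7 with KIN10, against 6.15, 6.86 and 5.91 FPKM in NLP7 alone and 14.97, 13.3 and 14.5 FPKM in GFP (log2 fold change 1.37 ± 0.18, adjusted p = 5.64e-06, edgeR). PRN, a pirin-like gene, averaged 1.07 ± 0.34 FPKM in NLP7 with KIN10, 0.36 ± 0.145 FPKM in NLP7 alone and 0.843 ± 0.16 FPKM in GFP (log2 fold change 1.59 ± 0.37, adjusted p = 0.000885, edgeR).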
